A study of Mus musculus with 6 samples.

Results

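Macrophage and other leukocyte markers in whole gastrocnemius muscle were described through 44 genes, chosen by symbol from the 24532 genes of the deposited table. RNA came from C57BL/6 mice aged 12 weeks. The 3 knockout mice carried floxed Usp21 alleles (flox/flox) together with Ckmm-Cre, a Cre transgene under the promoter of muscle creatine kinase. The 3 control mice carried the same floxed alleles without Cre. Usp21 encodes an enzyme that removes ubiquitin from proteins. The Cre promoter acts in striated muscle, so leukocytes are not its target cells, and each library holds RNA of muscle fibres, vessels, connective tissue, blood and leukocytes together.

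Resting skeletal muscle holds a sparse population of resident macrophages, which sit in the connective tissue, clear debris through scavenger and complement receptors, and present antigen on MHC class II. After damage, circulating monocytes and neutrophils enter along chemokine gradients, and monocytes mature into macrophages. Most markers are shared by several of these cells, so the genes were ordered by role: monocyte and chemokine, shared myeloid, Fc receptor and adaptor, resident macrophage, MHC class II, pan-leukocyte, lymphocyte, and neutrophil genes.

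Libraries totalled 48658436 to 67332846 counts. Levels are given in CPM, which are counts scaled to library size and composition. Usp21 stood at 9.08, 7.19 and 7.47 CPM in knockouts, against 19.3, 19.3 and 19.2 CPM in controls, so the targeted gene was lower in each library labelled as knockout (log2 fold change -1.28, SE 0.11, edgeR adjusted p = 0.0355). The adjusted p lies between 0.0552 and 0.2 in 7 of the alternative fits. The labels do not say whether the mice came from separate litters, so a p-value here reflects only how these samples vary. The 8 fibre genes checked for tissue identity, among them Ckm and Acta1, summed to 160000, 191000 and 153000 CPM in knockouts and 149000, 132000 and 178000 CPM in controls. The sum does not show that Myh7 and Tnni1, genes of slow fibres, were at only 6.63 and 1.13 CPM in control 3. In every other library they were at 180 CPM or more and 24.3 CPM or more. The 44 leukocyte markers together summed to 604, 359 and 506 CPM in knockouts and 297, 528 and 362 CPM in controls, which overlap.

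No leukocyte marker passed the test of knockout against control. The 5 genes with the smallest p-values were the chemokines Ccl9, Ccl6 and Ccl2, the galectin Lgals3 and the integrin subunit Itgam. Their fitted levels in knockout muscle were 1.88 to 5.51 times those of control muscle. The antigen presentation genes H2-Aa, H2-Ab1, H2-Eb1 and Cd74 and the macrophage receptor genes Csf1r and Adgre1 had log2 fold changes between -0.096 and 0.17. The 7 resident macrophage markers, which include Csf1r and Adgre1, had a median of 0.36, with Mrc1 the highest at 0.46. The median over all 40 tested markers was 0.37. The lymphocyte markers Cd3e, Cd3g and Cd79a were at or near 0 in every library. In whole tissue, more cells of a type and more RNA per cell cannot be told apart.

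Of the 44 markers, 40 had enough counts to be tested. By edgeR's quasi-likelihood test over 14109 genes with Benjamini-Hochberg adjustment, 0 of the 40 were called higher and 0 lower at an adjusted p under 0.05, where 0.0354% of all genes were called higher and 0.0213% lower. At an unadjusted p under 0.05 the 5 genes above were higher, 12.5% of the tested markers against 6.56% of all genes, and 0 were lower, against 5.07% of all genes. A Wald test in DESeq2 called 4 markers, namely Ccl9, Ccl6, Lgals3 and Ccl2, where it called 1.49% of all genes higher, and limma-voom called 0. All 3 knockout values exceeded all 3 control values in 4 markers, 10% of those tested, against 8.38% of all genes, and all 3 lay below in 0 markers, against 8.87%. The log2 fold change (knockout minus control) was positive in 35 of the 40 and negative in 5. Their median was 0.37, where the median over all genes was -0.0037 and 49.3% of all genes were positive. The markers varied together, with knockout 1 the highest library for 28 of the 40 and control 1 the lowest for 23. Their signs are thus not separate observations.

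**Figure D1:**
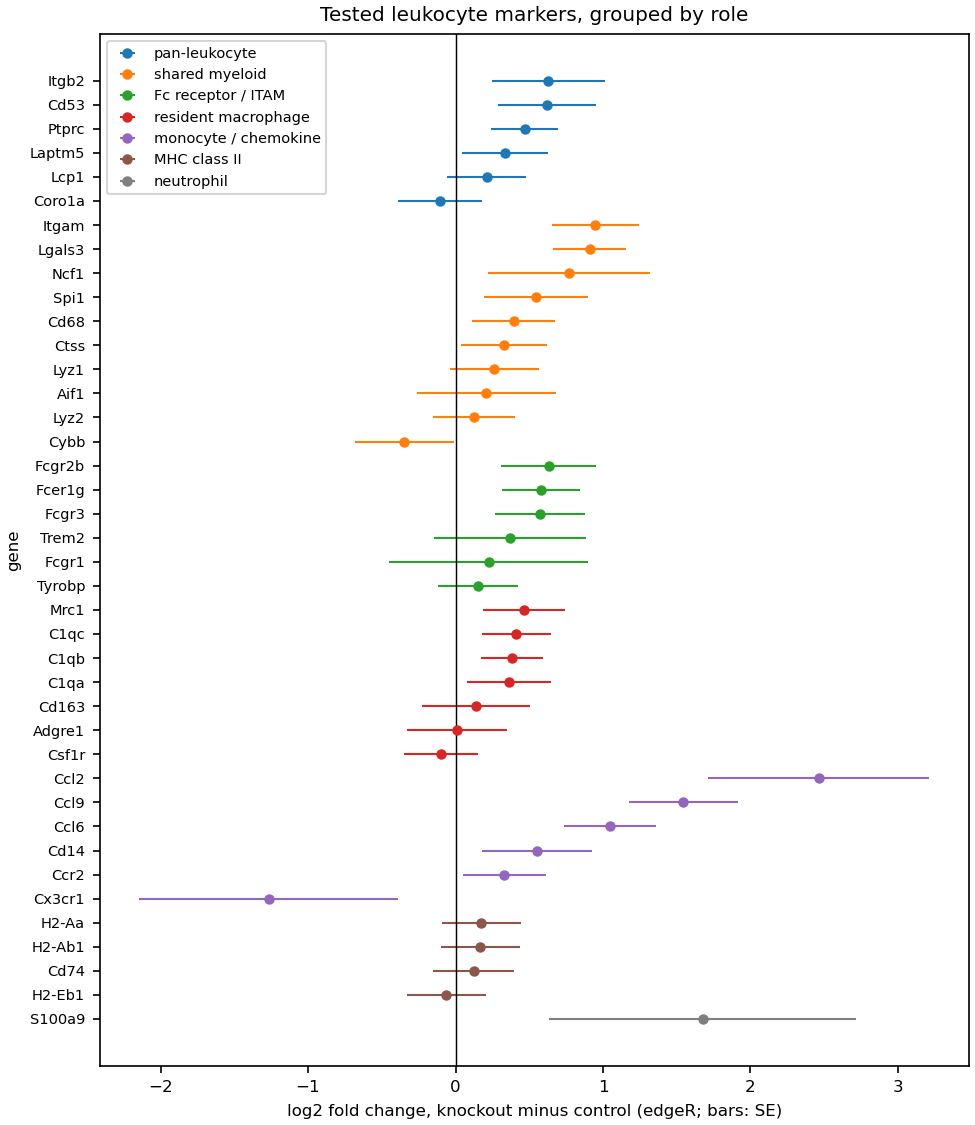
Log2 fold changes (x axis, knockout minus control, bars are SE) of the 40 tested markers, a gene per row, coloured by role. Ccl2, S100a9, Ccl9 and Ccl6 lie farthest to the right, at 2.46, 1.68, 1.54 and 1.05, and the MHC class II genes lie between -0.062 and 0.17.

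The chemokine genes had the largest log2 fold changes of the markers beside S100a9, and Ccl9 had the smallest p. Ccl9 encodes a CC chemokine of mouse myeloid cells that acts through the receptor CCR1. It stood at 29.8, 17.4 and 11.2 CPM in knockouts, against 4.83, 8.8 and 6.35 CPM in controls. The groups did not overlap, knockout 1 was the highest library, and knockout 3 was the knockout closest to the controls. The means were 19.5 ± 9.49 CPM in knockouts and 6.66 ± 2.0 CPM in controls (SD, n = 3 each), with a log2 fold change of 1.54 (SE 0.37, edgeR unadjusted p = 0.00353, adjusted p = 0.285). An exact two-sided permutation test gave p = 0.1, the smallest that 3 against 3 libraries allow.

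Ccl6 is a related chemokine gene on the same stretch of chromosome 11. Its levels were 33.7, 21.4 and 17.3 CPM in knockouts, against 7.56, 15.6 and 11.8 CPM in controls, again without overlap and with knockout 3 just above control 2. The means were 24.2 ± 8.49 CPM in knockouts and 11.7 ± 4.03 CPM in controls (SD, n = 3 each), with a log2 fold change of 1.05 (SE 0.31, edgeR unadjusted p = 0.0114, adjusted p = 0.347). In mm10 coordinates Ccl9 (Entrez 20308) spans 83572917 to 83578636 and Ccl6 (Entrez 20305) spans 83587886 to 83593087, leaving 9249 bases between the genes. The knockout libraries stood in the same order for both genes. The ratio of Ccl9 to Ccl6 counts within a library was 0.886, 0.811 and 0.644 in knockouts and 0.639, 0.563 and 0.537 in controls, so the neighbours kept to a narrower range than either gene alone.

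Ccl2 encodes the ligand of CCR2 that draws monocytes out of blood. It was sparse, with 102, 63 and 14 counts in knockouts and 5, 21 and 8 counts in controls, or 1.56, 1.25 and 0.256 CPM in knockouts and 0.0997, 0.324 and 0.121 CPM in controls. Knockouts 1 and 2 lay above every control, whereas knockout 3 lay below control 2. The log2 fold change was 2.46 (SE 0.75, edgeR unadjusted p = 0.0122, adjusted p = 0.35). Its receptor gene Ccr2, a marker of inflammatory monocytes, stood at 4.83, 2.77 and 4.11 CPM in knockouts and 2.85, 4.15 and 2.31 CPM in controls (0.33, SE 0.28), and the groups overlapped.

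**Figure D2:**
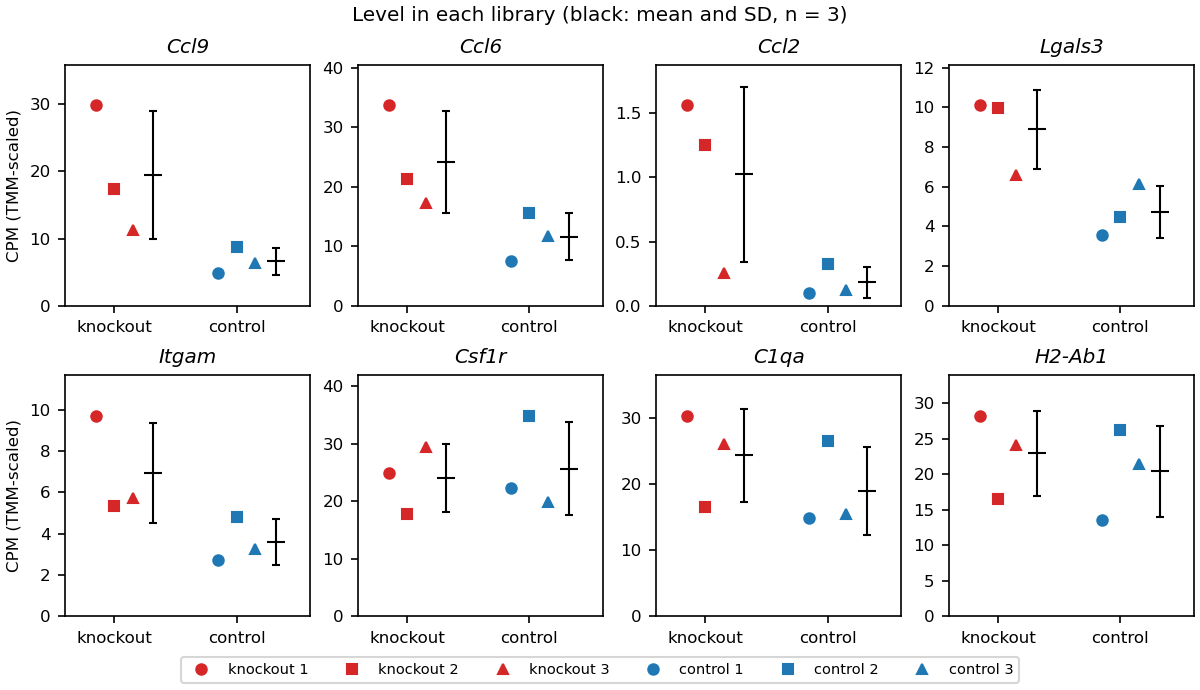
CPM (y axes, from 0) of 8 markers in each library, knockouts on the left and controls on the right, with the mean and SD in black (n = 3). Ccl9, Ccl6, Lgals3 and Itgam do not overlap between the groups, Ccl2 overlaps through knockout 3 at 0.256 CPM, and Csf1r, C1qa and H2-Ab1 overlap.

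The other monocyte genes gave no common direction. Cd14, a coreceptor for bacterial lipopolysaccharide, averaged 3.5 ± 1.22 CPM in knockouts and 2.38 ± 1.13 CPM in controls (SD, n = 3 each, log2 fold change 0.55). Cx3cr1, the fractalkine receptor of patrolling monocytes and some tissue macrophages, was sparse, with 13, 0 and 13 counts in knockouts and 14, 38 and 14 counts in controls. The 0 in knockout 2 allows up to 0.0595 CPM (3 counts, counting error only). The groups overlapped, with a log2 fold change of -1.27 (SE 0.88, edgeR adjusted p = 0.627).

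Among the shared myeloid genes, Lgals3 and Itgam separated the groups. Lgals3 (Entrez 16854, chromosome 14) encodes galectin-3, a sugar-binding protein abundant in activated macrophages and also made by other cells. It stood at 10.1, 9.99 and 6.57 CPM in knockouts, against 3.55, 4.48 and 6.16 CPM in controls. Knockout 3 and control 3 were nearly equal, and the other knockouts stood clear of all controls. The log2 fold change was 0.91 (SE 0.25, edgeR unadjusted p = 0.00683, adjusted p = 0.314).

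Itgam encodes CD11b, the alpha chain of complement receptor 3 on monocytes, macrophages and neutrophils. It stood at 9.74, 5.33 and 5.75 CPM in knockouts, against 2.71, 4.82 and 3.25 CPM in controls, with knockout 1 far above the rest and knockout 2 close to control 2. The log2 fold change was 0.95 (SE 0.30, edgeR unadjusted p = 0.014, adjusted p = 0.363). The gene (Entrez 16409) covers 128062640 to 128118491 of chromosome 7. In the GENCODE M21 transcripts 68.5% of its words of 50 bases also occur in Gm49368, an overlapping gene model on the same strand, so its count could depend on how shared reads were assigned. Itgb2, the beta chain that CD11b shares with other leukocyte integrins, stood at 7.22, 3.92 and 3.29 CPM in knockouts and 2.01, 4.58 and 2.72 CPM in controls (0.63, SE 0.38), and the groups overlapped.

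Sequences before 5 genes are shown because Ccl9, Ccl6, Lgals3 and Itgam did not overlap between the groups, and Mrc1, a resident macrophage gene whose groups did, is set beside them. Each is the stretch of 250 bases before the annotated start in RefSeq's GRCm38.p6, read 5′ to 3′ on the gene's strand. Capitals mark the PU.1 core GAGGAA and the AP-1 site TGANTCA on either strand. The windows are chr11:83578637-83578886 (minus strand) for Ccl9, chr11:83593088-83593337 (minus) for Ccl6, chr14:47373610-47373859 (plus) for Lgals3, chr7:128062390-128062639 (plus) for Itgam and chr2:14229164-14229413 (plus) for Mrc1.
Ccl9: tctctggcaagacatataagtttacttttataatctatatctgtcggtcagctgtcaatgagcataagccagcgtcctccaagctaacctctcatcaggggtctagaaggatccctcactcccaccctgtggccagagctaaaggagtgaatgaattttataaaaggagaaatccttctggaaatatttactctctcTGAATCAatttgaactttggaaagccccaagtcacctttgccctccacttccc
Ccl6: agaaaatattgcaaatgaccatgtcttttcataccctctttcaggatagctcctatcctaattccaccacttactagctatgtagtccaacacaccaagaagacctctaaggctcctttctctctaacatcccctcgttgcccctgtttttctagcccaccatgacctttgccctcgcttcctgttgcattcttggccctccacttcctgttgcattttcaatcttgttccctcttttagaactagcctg
Lgals3: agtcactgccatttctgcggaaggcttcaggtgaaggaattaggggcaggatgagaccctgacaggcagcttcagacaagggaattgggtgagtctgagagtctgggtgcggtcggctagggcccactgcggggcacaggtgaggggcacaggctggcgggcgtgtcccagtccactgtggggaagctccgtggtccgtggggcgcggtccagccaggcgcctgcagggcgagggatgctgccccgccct
Itgam: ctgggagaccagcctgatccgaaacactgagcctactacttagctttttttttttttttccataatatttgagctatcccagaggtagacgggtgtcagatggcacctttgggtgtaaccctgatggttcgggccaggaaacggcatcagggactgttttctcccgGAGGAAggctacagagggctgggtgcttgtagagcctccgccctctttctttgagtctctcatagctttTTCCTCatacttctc
Mrc1: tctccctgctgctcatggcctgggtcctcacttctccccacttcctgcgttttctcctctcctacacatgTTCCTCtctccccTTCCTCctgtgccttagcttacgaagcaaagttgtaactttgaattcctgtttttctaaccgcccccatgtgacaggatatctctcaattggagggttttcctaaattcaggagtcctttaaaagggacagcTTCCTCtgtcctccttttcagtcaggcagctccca
PU.1, the product of the marker gene Spi1, is a transcription factor that myeloid and B cells depend on. Its core stands 2 times before Itgam, 3 times before Mrc1 and in none of the Ccl9, Ccl6 and Lgals3 windows. Mrc1 does not stand for the genes whose groups overlapped. Among those, the core stands 1 time each before C1qb and C1qc and 0 times before Cd163, Ccr2 and Lyz2. The AP-1 match before Ccl9 is the only one in the 5 windows. The longest run that the Ccl9 and Ccl6 windows share is gccctccacttcc, of 13 bases.

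Windows were found for 34 of the 44 markers. The PU.1 core was in 44.7% of the 38 windows of these genes, against 23.3% of 32851 windows of all genes. The AP-1 site was in 10.5% of the marker windows, against 6.75% of all windows. The inverted CCAAT box ATTGG, which class II promoters hold, was in 31.6% of the marker windows, against 33.8% of all windows. A match describes the letters of the window and is not a binding site.

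The remaining shared myeloid genes lay inside the spread between mice. Spi1 stood at 3.08, 1.39 and 1.79 CPM in knockouts and 1.3, 1.88 and 1.12 CPM in controls (0.55, SE 0.35). Cd68, a lysosomal glycoprotein of macrophages, had a log2 fold change of 0.40, and Ctss, a lysosomal protease that trims the class II invariant chain, one of 0.33. Aif1, a calcium-binding protein of macrophages, had at most 32 counts in a library and stood at 0.21 (SE 0.47).

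The phagocyte oxidase genes differed in sign. Cybb, the catalytic membrane subunit, stood at 3.08, 2.18 and 4.25 CPM in knockouts and 3.23, 5.87 and 3.0 CPM in controls (-0.35, SE 0.33). Ncf1, the cytosolic organizer subunit, stood at 3.99, 3.03 and 4.91 CPM in knockouts and 0.578, 3.78 and 2.59 CPM in controls (0.77, SE 0.55), with control 1 far below the other 5 libraries. Neither passed the test.

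Lyz2, the lysozyme of macrophages, had the highest level per length of all 44 markers, a mean of 52.2 FPKM over the 6 libraries with a range of 34.8 to 74.1 FPKM. Next in that order came Cd74 at 46.1, H2-Aa at 21.5 and C1qa at 19.8 FPKM, and Ccl6 at 12.2 FPKM was the highest chemokine. Ptprc was at 0.637, Cx3cr1 at 0.0672 and Cd3e at 0.0187 FPKM. The ranges of neighbours in this order overlap, except that Cd74, at 30.2 FPKM or more, stayed above H2-Aa, at 29 FPKM or less.

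The level of Lyz2 did not separate the groups, at 66.8, 39.9 and 67.2 CPM in knockouts and 40.1, 74.6 and 45 CPM in controls (0.12, SE 0.28). Lyz1, the paralog of Paneth cells, had a log2 fold change of 0.26. The transcripts share 16.1% of the 50-base words of Lyz1 and 15.4% of those of Lyz2, so how their reads were split is uncertain. The ratio of Lyz2 to Lyz1 counts was 9.76, 6.82 and 10.5 in knockouts and 13.8, 10 and 8.13 in controls.

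The 6 Fc receptor and adaptor genes had positive log2 fold changes, except that Fcgr1 was just below 0 in the fits on log2(FPKM + 0.1) and with a replicate block, and Fcgr1 and Tyrobp in some fits that left out a library. None passed the test. Fcer1g encodes the common gamma chain, an adaptor with an ITAM, the tyrosine motif through which Fc receptors signal. It stood at 6.7, 4.82 and 4.2 CPM in knockouts and 2.57, 4.71 and 3.22 CPM in controls (0.58, SE 0.27, edgeR adjusted p = 0.457). Knockout 3 lay below control 2, so the groups overlapped. Fcgr2b, the inhibitory IgG receptor, had a log2 fold change of 0.63 and Fcgr3, an activating one, of 0.57. They share 6.72% of the 50-base words of Fcgr2b and 10.2% of those of Fcgr3 with other genes, mainly each other. Fcgr2b, Fcgr3 and Fcer1g start at 170960558, 171051169 and 171229572 of chromosome 1, near the targeted gene Usp21 at 171281949. Fcgr1, Tyrobp and Trem2, on other chromosomes, had log2 fold changes of 0.22, 0.15 and 0.37. Whether closeness to the targeted gene bears on these values was not tested.

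The rarer genes of this kind had few reads. Fcgr1, the high-affinity IgG receptor, had 74, 24 and 10 counts in knockouts and 31, 44 and 17 counts in controls. Trem2, a lipid-sensing receptor that signals through the adaptor encoded by Tyrobp, had 17, 11 and 20 counts in knockouts and 7, 23 and 10 counts in controls. Tyrobp averaged 3.68 ± 0.774 CPM in knockouts and 3.31 ± 1.08 CPM in controls (SD, n = 3 each, log2 fold change 0.15). Of 13 further genes of ITAM signalling, 11 were tested, 8 were positive, 3 were negative and 0 passed, with a median of 0.16. The inhibitory receptor gene Pirb stood at 5.91, 3.41 and 5.0 CPM in knockouts and 1.76, 3.23 and 2.65 CPM in controls (0.91, SE 0.28, edgeR adjusted p = 0.363), without overlap, and the kinase gene Btk had a log2 fold change of 1.18 (SE 0.38).

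The 7 resident macrophage markers overlapped between the groups. Csf1r encodes the receptor for the macrophage growth factor CSF-1. It stood at 24.9, 17.7 and 29.4 CPM in knockouts and 22.2, 34.9 and 19.9 CPM in controls, with a log2 fold change of -0.096 (SE 0.25, edgeR adjusted p = 0.916). Control 2 was the highest library and knockout 2 the lowest. Adgre1, the F4/80 antigen, had a log2 fold change of 0.010, which was below 0 with upper-quartile scaling, and Cd163, the haemoglobin scavenger receptor, of 0.14.

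The complement C1q chains and the mannose receptor gene Mrc1 averaged higher in knockouts, within the spread. C1qa stood at 30.4, 16.6 and 26.1 CPM in knockouts and 14.8, 26.6 and 15.4 CPM in controls (0.36, SE 0.29). C1qb had a log2 fold change of 0.38 and C1qc of 0.41. The ratio of C1qa to C1qc counts was 1.02 ± 0.069 in knockouts and 1.05 ± 0.0983 in controls (SD, n = 3 each). It ran from 0.951 in control 3 to 1.15 in control 2, a narrower range than that of C1qa itself. Ratios to C1qb were not taken. Mrc1 stood at 30, 16.8 and 24.7 CPM in knockouts and 15.5, 23.7 and 12.6 CPM in controls (0.46, SE 0.28, edgeR adjusted p = 0.565), with control 2 above knockout 2.

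Of 18 further genes of tissue macrophages, all tested, 15 were positive, 3 negative and 0 called, and 4 were higher at an unadjusted p under 0.05 (6.56% of all genes were), with a median of 0.24. Lyve1, a hyaluronan receptor of perivascular macrophages that lymphatic endothelium also makes, stood at 30.9, 23.4 and 24.8 CPM in knockouts and 11.4, 19.3 and 11.7 CPM in controls (0.90, SE 0.22, edgeR adjusted p = 0.291), without overlap. Maf, a transcription factor of macrophages and other cells, stood at 229, 258 and 82.2 CPM in knockouts and 95.3, 109 and 87.9 CPM in controls, where knockout 3 was below every control. The other genes at an unadjusted p under 0.05, named after their values were seen, were Mertk, a receptor for the uptake of dying cells, and Cbr2, a carbonyl reductase. Mertk stood at 9.31, 9.14 and 11.2 CPM in knockouts and 7.38, 8.95 and 6.16 CPM in controls (0.40, SE 0.16, edgeR adjusted p = 0.409), without overlap, and Cbr2 had a log2 fold change of 0.40, with overlap.

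Levels were also set against Csf1r within each library. The ratio of Ccl9 to Csf1r counts was 1.2, 0.982 and 0.38 in knockouts and 0.218, 0.252 and 0.319 in controls. The ratio of Itgam to Csf1r was 0.391, 0.301 and 0.196 in knockouts and 0.122, 0.138 and 0.163 in controls. For both genes every knockout lay above every control, with knockout 3 the nearest. The ratio of Ccl6 to Csf1r was 1.35, 1.21 and 0.59 in knockouts and 0.341, 0.447 and 0.593 in controls, and that of Lgals3 to Csf1r was 0.407, 0.564 and 0.223 in knockouts and 0.16, 0.128 and 0.309 in controls. For these, knockout 3 lay inside the control range. The ratios were chosen with the levels known and are given without a test. Csf1r had the lowest log2 fold change of the 7 resident macrophage markers, at -0.096, and ratios to the others were not taken.

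The 4 MHC class II genes had the lowest median log2 fold change of the role groups, 0.15. The invariant chain gene Cd74, whose product guides class II molecules to the endosome, stood at 79.1, 42 and 66.2 CPM in knockouts and 40, 73.1 and 58.7 CPM in controls (0.12, SE 0.28). H2-Ab1, a class II beta chain, stood at 28.3, 16.5 and 24.1 CPM in knockouts and 13.6, 26.2 and 21.4 CPM in controls (0.17, SE 0.27). Control 1 and knockout 2 were the lowest libraries for both genes. H2-Aa, the matching alpha chain, had a log2 fold change of 0.17 and H2-Eb1, another beta chain, of -0.062.

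H2-Aa and Cd74 kept their proportion to H2-Ab1, while H2-Eb1 did not. The ratio of H2-Aa to H2-Ab1 counts was 1.07 ± 0.0419 in knockouts and 1.08 ± 0.0362 in controls, and that of Cd74 to H2-Ab1 was 2.7 ± 0.13 in knockouts and 2.82 ± 0.108 in controls (SD, n = 3 each). The ratio of H2-Eb1 to H2-Ab1 was 0.826, 0.732 and 0.825 in knockouts and 1.02, 0.899 and 0.946 in controls, lower in every knockout than in every control, a ratio chosen with the counts known and given without a test. Of 7 further class II genes, 5 were tested, 3 were positive, 2 negative and 0 passed. The peptide-loading genes H2-DMb1 and H2-DMb2 had log2 fold changes of 0.55 and 0.49. Of 11 dendritic cell genes, 8 were tested, 6 were positive, 2 negative and 0 passed. Cd209a had a log2 fold change of 0.76 and Siglech, a marker of plasmacytoid cells, of -0.77.

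Pan-leukocyte genes overlapped between the groups. Ptprc, the CD45 phosphatase of nucleated blood cells, stood at 5.02, 3.53 and 3.69 CPM in knockouts and 2.49, 3.77 and 2.57 CPM in controls (0.47, SE 0.23, edgeR adjusted p = 0.481). Control 2 reached into the knockout range. The tetraspanin gene Cd53 had a log2 fold change of 0.62, the lysosomal membrane gene Laptm5 of 0.34, and the actin-bundling gene Lcp1 of 0.21. Coro1a, an actin-binding protein of lymphocytes and myeloid cells, was at -0.10. Of 11 further integrin and cytoskeletal genes of leukocytes, all tested, 10 were positive, 1 negative and 0 passed. Among them Fermt3, needed for integrin activation, was at 0.53 and Cytip at 0.90.

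The 3 lymphocyte markers had few reads. Cd3e and Cd3g, chains of the T cell receptor complex, had 9 and 2 counts in knockout 3 and 0 in the other 5 libraries. Cd79a, a chain of the B cell receptor complex, had 0, 0 and 12 counts in knockouts and 4, 0 and 5 counts in controls. None of the 3 was tested. A count of 0 allows up to 0.0460 and 0.0595 CPM in knockouts 1 and 2 and 0.0454 to 0.0598 CPM in controls, so a difference was not detectable at this depth.

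Of 18 further T and NK cell genes 5 were tested, with 4 positive, 1 negative and 0 called. Cd3d, Cd8b1 and Cd6 were at 0 counts in all 6 libraries. Cd247, the zeta chain of the T cell receptor complex, stood at 0.66, 0.634 and 1.06 CPM in knockouts and 1.95, 1.87 and 1.82 CPM in controls (-1.26, SE 0.28, edgeR unadjusted p = 0.00217, adjusted p = 0.241), without overlap. It thus had reads in every library, whereas Cd3e was at 0 in 5 of them. The costimulatory receptor gene Cd28 also had reads in every library, at 5.51, 8.17 and 3.16 CPM in knockouts and 3.33, 1.7 and 6.26 CPM in controls (0.57, SE 0.49), and the groups overlapped. Of 11 B cell and plasma cell genes 4 were tested and 0 passed, with Jchain at 1.42 and Bank1 at -1.37 from under 1 CPM in every library.

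Neutrophil genes were close to the detection limit. S100a9, a subunit of calprotectin, had 38, 26 and 13 counts in knockouts and 2, 0 and 24 counts in controls. Control 3 lay inside the knockout range. The fitted difference was 1.68 on the log2 scale (SE 1.04, edgeR adjusted p = 0.583). Its partner S100a8 had 13, 17 and 0 counts in knockouts and 4, 0 and 4 counts in controls and was not tested. Of 14 further neutrophil genes 5 were tested and all 5 were positive, with 0 called and 2 higher at an unadjusted p under 0.05, where 6.56% of all genes were.

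Those 2 were Lcn2 and Csf3r. Lcn2, a siderophore-binding protein of neutrophils that other tissues also release, stood at 1.93, 2.91 and 2.72 CPM in knockouts and 0.878, 0.587 and 1.38 CPM in controls (1.41, SE 0.35, edgeR adjusted p = 0.295). Csf3r, the receptor for granulocyte colony-stimulating factor, stood at 0.752, 0.436 and 0.292 CPM in knockouts and 0.199, 0.232 and 0.0756 CPM in controls (1.55, SE 0.57). Neither overlapped between the groups, where 8.38% of all genes were higher without overlap. The defining surface marker Ly6g was at 0 in all 6 libraries, and Camp, Ltf and Mpo were each at 0 in 5 of 6. The other untested genes were sparse. Mmp8 had 7, 6 and 6 counts in knockouts and Cxcr2 had 6, 3 and 0, and both were at 0 in every control. Elane had 1, 2 and 6 counts in knockouts and 0, 0 and 2 in controls. Retnlg had 17, 8 and 0 against 5, 3 and 8, and Ngp had 0, 0 and 14 against 0, 0 and 15.

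Of 14 further monocyte genes 7 were tested, 6 were positive, 1 negative and 0 passed. Ly6c2, a surface marker of inflammatory monocytes, had 512, 0 and 0 counts in knockouts and 0, 0 and 372 counts in controls and was not tested. It is a close relative of the endothelial gene Ly6c1, so its reads are uncertain. Vcan, a proteoglycan of monocytes and fibroblasts, stood at 33.8, 27.1 and 12.4 CPM in knockouts and 7.52, 12.1 and 8.76 CPM in controls (1.36, SE 0.35, edgeR adjusted p = 0.305), without overlap. Nr4a1, which patrolling monocytes and muscle fibres both express, had a log2 fold change of 0.93.

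Of 12 mast cell and eosinophil genes 6 were tested and all 6 were positive, with 0 called. Cpa3, the mast cell carboxypeptidase, stood at 4.39, 2.38 and 4.22 CPM in knockouts and 1.83, 2.49 and 2.13 CPM in controls (0.77, SE 0.27, edgeR adjusted p = 0.367), and knockout 2 overlapped the controls. Hdc, which makes histamine, had a log2 fold change of 1.73 (SE 0.61).

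Other cytokines and chemokines had a median log2 fold change of 0.042. Of 23 genes 14 were tested, with 9 positive, 5 negative and 0 called. Ccl11 was at 0.23 and Tgfb1 at 0.44. Among markers of macrophages in damaged tissue 9 of 12 were tested, with 5 positive, 4 negative, 0 called and a median of 0.050. Nos2, the inducible nitric oxide synthase, stood at 2.04, 2.02 and 2.43 CPM in knockouts and 3.67, 3.74 and 3.51 CPM in controls (-0.75, SE 0.16, edgeR adjusted p = 0.241), without overlap, and the tetraspanin gene Cd9 was at 0.28. Of 10 lysosomal genes, which most cells use, 6 were positive, 4 negative and 0 called, with a median of 0.086, Ctsh at 0.34 and Ctsk at 0.34.

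The markers varied together from mouse to mouse within each group. Knockout 1 was the highest library for 28 of the 40 tested markers and control 2 for 9, while control 1 was the lowest for 23, knockout 2 for 8 and control 3 for 7. The median deviation of the 40 markers from their own means (log2 CPM) was 0.55, -0.20 and 0.18 in knockouts 1 to 3 and -0.52, 0.33 and -0.41 in controls 1 to 3. Control 2 thus stood above knockouts 2 and 3 for the typical marker. For the monocyte and chemokine genes the median deviation was 0.95, 0.20 and 0.081 in knockouts 1 to 3 and -0.95, 0.12 and -0.52 in controls 1 to 3, and among the 6 role groups with several tested genes this was the only one above 0 in all 3 knockouts.

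**Figure D3:**
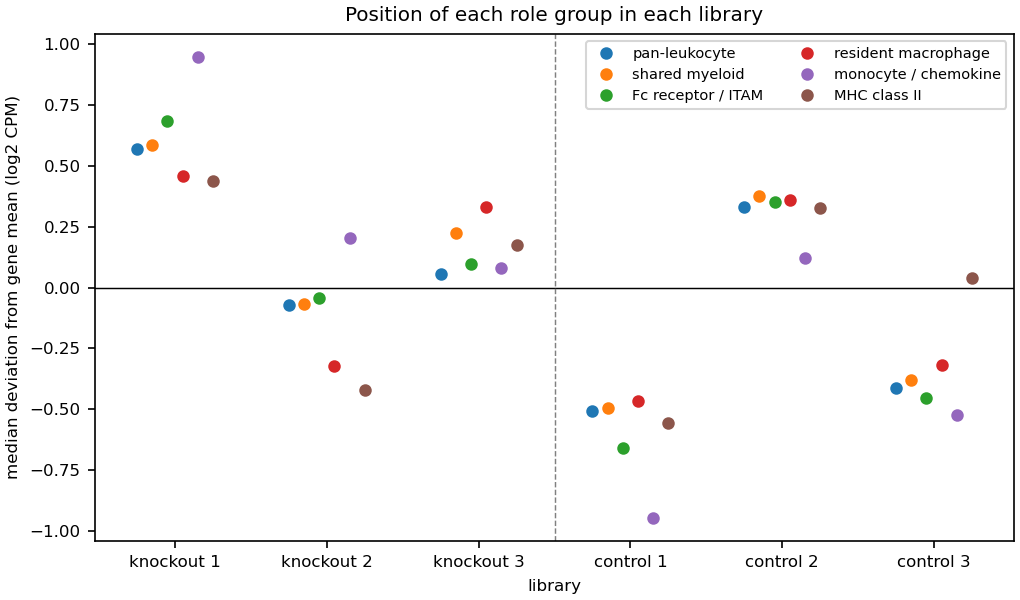
Median deviation of each role group from its genes' means over the 6 libraries (y axis, log2 CPM), by library, knockouts left of the dashed line. Knockout 1 and control 2 are above 0 in all 6 groups shown and control 1 is below 0 in all 6, while in knockout 2 the monocyte and chemokine genes are at 0.20 and the MHC class II genes at -0.42.

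Counts of markers depended on which libraries were included. Without control 2, 18 of 41 tested markers were higher in knockout muscle at an unadjusted p under 0.05, or 43.9%, against 6.52% of all genes. Without knockout 2 the count was 10 of 40, or 25.0%, against 4.21% of all genes. Without each of the other 4 libraries it was 5 to 7, or 12.2% to 17.1%, against 3.51% to 8.95% of all genes. Markers higher without overlap numbered 23 of 41 without control 2, 10 of 40 without knockout 2 and 8 of 41 without knockout 3. Over all genes the shares were 14.5%, 12.3% and 18.1%, so the count without knockout 3 was near the share over all genes. Ccl9, Ccl6, Ccl2, Lgals3 and Itgam were at an unadjusted p under 0.05 in each of the 6 fits. In each of them the monocyte and chemokine genes had the highest median of the 6 role groups, 0.47 to 1.15, and the MHC class II genes the lowest, -0.069 to 0.35. The monocyte and chemokine group holds Ccl9, Ccl6 and Ccl2, and the fits share most libraries, so its rank is not separate support. Ccl9, Ccl6, Ccl2, Lgals3 and Itgam were picked by their p-values with all libraries, so their p-values here are not separate support either.

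**Figure D4:**
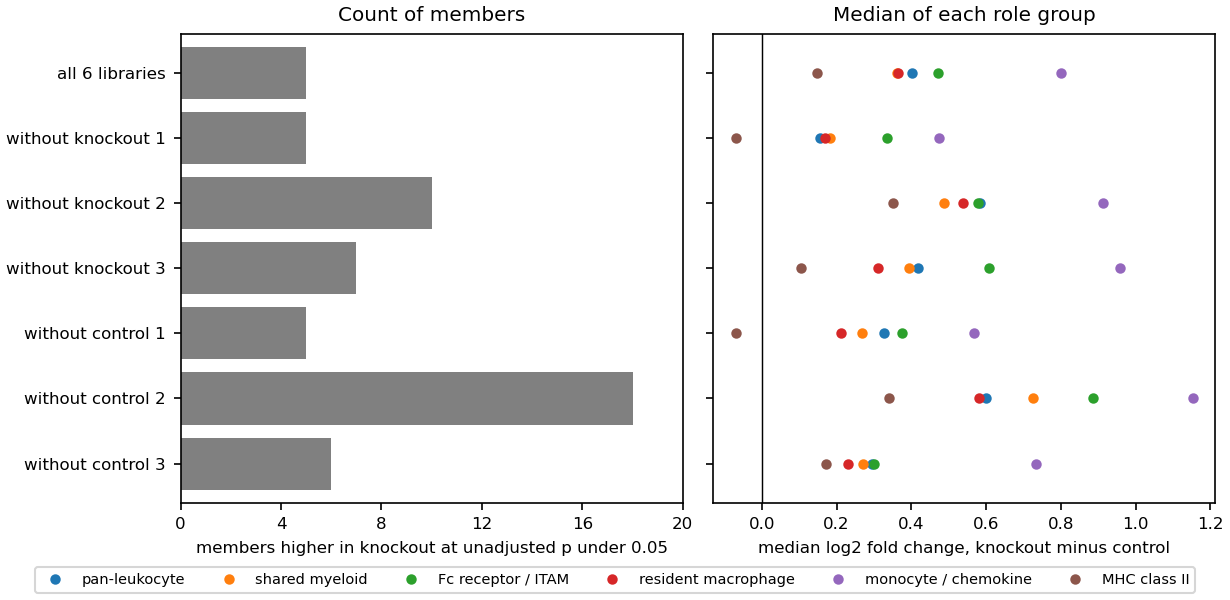
Left, number of markers higher in knockout muscle at an unadjusted p under 0.05 (x axis) with all 6 libraries (5) and with each left out in turn, highest without control 2 (18). Right, median log2 fold change of each role group (x axis, knockout minus control) in the same fits, where monocyte and chemokine genes lie farthest right and MHC class II genes farthest left in every row.

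Markers of other tissues were compared in the same libraries. The 8 fibroblast genes summed to 2730, 2570 and 2290 CPM in knockouts and 1750, 2340 and 1550 CPM in controls, with 7 positive, 1 negative, 0 called, and Col3a1 at 0.62 and Col1a2 at 0.66. As for the leukocyte markers, control 2 was the highest control. At an unadjusted p under 0.05, 3 of the 8 fibroblast genes were higher, where 6.56% of all genes were. The 8 endothelial genes summed to 487, 432 and 459 CPM in knockouts and 485, 500 and 395 CPM in controls, with 4 positive, 4 negative and 0 called, Kdr at -0.65 and Tek at -0.20. Red cell genes, as a measure of blood in the tissue, summed to 191, 1010 and 274 CPM in knockouts and 241, 197 and 248 CPM in controls, and 4 of 7 were tested with 0 called. Knockout 2 had the most haemoglobin RNA while its median deviation over the leukocyte markers was -0.20, with Hbb-bs at 101, 559 and 142 CPM in knockouts and 128, 103 and 124 CPM in controls and Alas2 at 2.56, 19.1 and 4.67 CPM in knockouts and 3.99, 3.16 and 4.04 CPM in controls. Of the 8 fibre genes 0 passed, with Myh4 at 0.37 and Mylpf at 0.14. At an unadjusted p under 0.05, 0 endothelial, red cell or fibre genes were higher. In the leukocyte lists, 3 of 7 monocyte, 3 of 6 mast cell and eosinophil and 3 of 11 ITAM signalling genes were higher. So were 2 of 11 integrin and cytoskeletal, 2 of 9 damaged-tissue macrophage, 1 of 8 dendritic and 1 of 14 cytokine genes. Lower were 2 damaged-tissue macrophage genes and 1 T and NK cell gene, where 5.07% of all genes were. The part of connective tissue, blood or fibre content in the leukocyte values was not tested.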

How the data were processed

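Libraries were stranded, poly(A)-selected TruSeq mRNA from whole gastrocnemius of 6 mice, 3 per group, per the labels. The authors deposited a table of read counts per gene with FPKM and TPM columns (scaled to gene length and library size), per the file headers. The submitters' processing notes list bcl2fastq 2.20.0, FastQC 0.11.7, Bowtie2 2.3.4.1, StringTie 1.3.4d and mm10. What each tool did, and whether counting used strand: not given in the sources used here. Deposited counts were used for all tests, deposited FPKM for levels between genes and 2 alternatives, and deposited TPM for no result.

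Genes passing filterByExpr (minimum count 10) were scaled by TMM and tested with edgeR 4.0.16 (quasi-likelihood, knockout against control, R 4.3.3) and Benjamini-Hochberg adjustment at 0.05. The fit was checked on simulated counts. A fold change is knockout minus control on the log2 scale. Alternatives used DESeq2 1.42.0, limma 3.58.1 (voom, and trend on log2 FPKM with pseudocounts 1 and 0.1), 2 other scalings, 2 filters, a replicate block and each library left out in turn. A floor is 3 counts, counting error only.

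The members and lists were chosen with earlier results of these data known. Every member is named, as are the members of each other list past the threshold or else the 2 with the smallest p. Any other name was picked with its values known. A further gene list is not reported here. Motifs were searched in the 250 bases before RefSeq starts. Shared 50-base words were counted in GENCODE M21 transcripts.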

Additional observations from a re-analysis of the deposited data

How the results depend on the processing

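Of 594 log2 fold changes of markers recomputed under alternatives, 557 kept their direction and their side of the threshold, 33 changed sign and 4 crossed the threshold, and the cause was not tested. The 4 were the DESeq2 adjusted p of Ccl9 (0.000988), Ccl6 (0.0256), Lgals3 (0.0275) and Ccl2 (0.0458), so DESeq2 called 4 markers higher, and over all genes it called 210 higher and 80 lower, against 5 and 3 by edgeR. Over all genes limma-voom called 1 lower, limma trend on log2(FPKM + 1) and on log2(FPKM + 0.1) each called 1 higher and 0 lower, and the replicate block left 0 higher and 0 lower. Same-numbered samples deviated with correlations of -0.008, -0.186 and -0.098, so the numbers were not taken to pair the mice. Under the block 0 markers were called and 5 stood higher at an unadjusted p under 0.05, or 12.5%, against 5.04% of all genes. The adjusted p of Usp21 was 0.2 under that block, 0.0657 and 0.0552 on log2(FPKM + 1) and log2(FPKM + 0.1), 0.154 without knockout 2, and 0.186, 0.129 and 0.0944 without controls 1 to 3.

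With each library left out in turn, all genes called numbered 1 to 120 higher and 0 to 21 lower, the upper ends without knockout 3. Markers higher at an unadjusted p under 0.05 numbered 5 to 18, or 12.2% to 43.9%, against 3.51% to 8.95% of all genes. Those higher without overlap numbered 4 to 23 of 40 or 41 tested, where 10.8% to 18.1% of all genes were. The lowest count was thus not above the share over all genes. Ccl9, Ccl6, Lgals3 and Itgam were at an unadjusted p under 0.05 in 15 of 15 alternative fits and Ccl2 in 14, being removed by the filter of 1 CPM. They were picked by that p-value in the main fit, and the fits reuse the same libraries, so this is not separate support. The sign changed in 28 cases when a library was left out, with log2 fold changes of -0.351 to 0.064 for Coro1a, -0.056 to 0.471 for Lcp1, -0.117 to 0.452 for Aif1, -0.028 to 0.578 for Lyz1, -0.047 to 0.438 for Lyz2, -0.613 to 0.02 for Cybb, -0.657 to 0.649 for Fcgr1, -0.051 to 0.419 for Tyrobp, -0.241 to 0.336 for Adgre1, -0.268 to 0.183 for Csf1r, -0.203 to 0.47 for Cd163, -0.087 to 0.342 for Cd74, -0.049 to 0.373 for H2-Aa, -0.056 to 0.381 for H2-Ab1 and -0.273 to 0.167 for H2-Eb1. Otherwise the sign changed 5 times: Adgre1 was at -0.003 with upper-quartile scaling, -0.035 on log2(FPKM + 1) and -0.063 on log2(FPKM + 0.1), and Fcgr1 at -0.043 on log2(FPKM + 0.1) and -0.002 with the replicate block. Depth limits the lymphocyte and neutrophil genes, most of which had too few counts for a test.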

Other observations

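Values outside the comparisons above were chosen after they were seen. Ccl7, a monocyte chemokine gene from the cluster that holds Ccl2, had 85, 20 and 3 counts in knockouts and 5, 6 and 2 counts in controls and was too sparse to be tested. Its libraries stood in the same order among knockouts as those of Ccl2. Clec4n, a lectin receptor of myeloid cells, stood at 0.521, 0.258 and 0.201 CPM in knockouts and 0.0598, 0.123 and 0.0454 CPM in controls (log2 fold change 2.07, SE 0.62, edgeR adjusted p = 0.346), without overlap. Cxcl13, a chemokine for B cells, stood at 1.96, 1.29 and 0.967 CPM in knockouts and 0.179, 0.309 and 1.29 CPM in controls, where control 3 lay inside the knockout range. Fabp5, listed with Clec4n among markers of macrophages in damaged tissue, was lower in knockouts, without overlap. It stood at 3.97, 5.39 and 4.4 CPM in knockouts and 6.88, 6.98 and 5.52 CPM in controls (log2 fold change -0.495, SE 0.16, edgeR adjusted p = 0.363).

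The slow-fibre genes Myh7 and Tnni1 set control 3 apart from the other libraries. Myh7 stood at 235, 180 and 416 CPM in knockouts and 293, 268 and 6.63 CPM in controls, and Tnni1 at 29.2, 24.3 and 39.2 CPM in knockouts and 30.2, 28.2 and 1.13 CPM in controls. Whether this bears on the leukocyte values of control 3 was not tested.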
